A study of Saccharomyces cerevisiae with 18 samples.

Results

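Oxidative phosphorylation in budding yeast is carried out by protein complexes of the inner mitochondrial membrane, and the genes described here are 43 nuclear genes for their subunits. They comprise 3 NADH dehydrogenases, 4 subunits of complex II, 9 of complex III, 2 cytochromes c, 9 subunits of complex IV, 13 of ATP synthase, and 3 small proteins that inhibit or stabilise ATP synthase. The genes were chosen by name. Of the 43, 41 had a probe among the 5365 named genes on the arrays, and QCR10 and COX7 had none. All 41 could be tested, and 29 of them had a value on all 9 arrays.

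Electrons from NADH enter the yeast chain through single-polypeptide dehydrogenases, since this species lacks the proton-pumping complex I of mammals, and electrons from succinate enter through complex II. Ubiquinone passes them to complex III, and cytochrome c passes them on to complex IV, which reduces oxygen. The proton gradient built on the way drives ATP synthase. In cells growing on glucose many of these genes are held at low expression, and the Hap activator complex (Hap2, Hap3, Hap4 and Hap5) raises them when glucose runs out. COX5B and CYC7 are the hypoxic isoforms that stand in for the aerobic COX5A and CYC1 when oxygen or haem is scarce.

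Exponential S288C cultures (OD 1) in YPD medium with 2% glucose at 25 °C were given 1 of 3 nitrophenols (1.5 mM of the p-, 5 mM of the m- and 3 mM of the o- isomer) and were sampled after 2 h. These isomers differ only in whether the nitro group sits para, meta or ortho to the hydroxyl group of the phenol ring. Each of the 3 groups had 3 independent cultures with 1 array each, on which RNA after treatment (Cy5) was hybridised against RNA from before treatment (Cy3), so that a value is the log2 ratio of the 2. All arrays had the dyes the same way round and none carried an untreated culture after 2 h, so the ratio holds the isomer, 2 h of growth and any dye effect together. The ratio is taken as treated over before treatment, which is likely from the channel order and the dyes. S288C carries a disrupted HAP1, the haem-dependent activator of several of these genes. Because doses differed, isomer and dose cannot be told apart in any difference between groups. In RNA pooled from a culture, a change in every cell and a larger change in some of the cells cannot be told apart.

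The 3 arrays numbered 1 stood apart from the rest. Their log2 ratios correlated with the other arrays of their group at r = 0.502 to 0.610, against 0.839 to 0.875 between arrays 2 and 3, and they held 1970 to 4369 named genes against 5155 to 5343. For members the same arrays held 41, 30 and 38 of the 41 values in p-, m- and o-nitrophenol. Results are therefore also given without these 3 arrays. A median over members on array 1 can also differ because other members were measured there.

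Across the 41 members, ratios were more often above 0 in o-nitrophenol and more often below 0 in p- and m-nitrophenol. The median log2 ratio of the members was -0.44 in p-, -0.14 in m- and 0.55 in o-nitrophenol, where the medians over all 5096 genes tested were 0.10, 0.04 and -0.17. Without the arrays numbered 1 the member medians were -0.41, -0.50 and 0.27, and those over all genes 0.10, 0.06 and -0.15. Members ranged from -2.07 to 2.03 in p-nitrophenol, from -1.78 to 2.34 in m-nitrophenol and from -2.06 to 4.45 in o-nitrophenol. Ratios above 0 were found for 17, 18 and 29 of the 41 members in turn, against 54.4%, 51.7% and 44% of all genes. So no isomer moved the whole set one way. The median in p-nitrophenol depended on which genes entered it, at -0.0057 over the 29 members measured on all arrays and 0.19 over the 14 with both scans of all arrays.

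Each mean was tested against 0 with limma, with Benjamini-Hochberg adjustment over all 5096 genes, and rose or fell is written of means with an adjusted p under 0.05. In p-nitrophenol 15 members passed, 5 higher and 10 lower, against 24.9% of all genes tested (13.0% higher and 11.9% lower). The 10 that fell were COR1, QCR2, CYT1 and RIP1 of complex III, COX4, COX5A and COX8 of complex IV, SDH2, ATP5 and INH1. The 5 that rose were ATP15, ATP16, ATP18 and TIM11 of ATP synthase and STF2. In m-nitrophenol 8 passed, 4 each way, against 17.9% of all genes (8.26% higher and 9.65% lower): COR1, CYT1, RIP1 and COX4 fell, and NDE2, ATP4, ATP15 and STF1 rose. In o-nitrophenol 15 passed, 11 higher and 4 lower, against 32.4% of all genes (13.8% higher and 18.7% lower). QCR6, QCR8, COX5B, COX9, CYC7, ATP4, ATP15, ATP17, ATP18, STF1 and STF2 rose there, and COR1, CYT1, COX5A and NDI1 fell. The members' shares passing were 36.6%, 19.5% and 36.6% in p-, m- and o-nitrophenol, and those in m- and o-nitrophenol were near the shares of all genes. In p-nitrophenol 12.2% of members rose, also near the share of all genes, and 24.4% fell. In o-nitrophenol 26.8% of members rose and 9.76% fell.

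Without the 3 arrays numbered 1, 23 members passed with the p-isomer (5 higher, 18 lower), 22 with the m-isomer (9 higher, 13 lower) and 21 with the o-isomer (13 higher, 8 lower), against 42.1%, 40.1% and 51.5% of all genes. Of the 15, 8 and 15 members called with all arrays, 14, 8 and 14 were called there too. The p-nitrophenol calls of RIP1 and CYC1 there rest on array 3 alone. Genes were not filtered again when arrays were left out, so a gene with 2 arrays in a group could keep 1. With the replicate block, which takes arrays of the same number as a set, 20, 15 and 18 members passed in p-, m- and o-nitrophenol, against 32.0%, 24.5% and 40.2% of all genes. Leaving out single arrays moved the p-nitrophenol count to 5 without array 2 or array 3 and to 9 without array 1, and the share of all genes to 9.79%, 11.1% and 18.6% in turn. The m-nitrophenol count became 0 without its array 2 and 2 without its array 3, 13 without p-nitrophenol array 1 and 15 without o-nitrophenol array 1, where 2.88%, 4.06%, 23.2% and 25.1% of all genes passed. The o-nitrophenol count became 8 without its array 2, where 16.6% of all genes passed. Calls that held when any 1 of the 9 arrays was left out were CYT1, COX4, COX5A and ATP15 in p-nitrophenol and QCR6, QCR8, COX5B, CYC7, ATP15, ATP18, STF1 and STF2 in o-nitrophenol, and none of the 8 in m-nitrophenol.

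**Figure D1:**
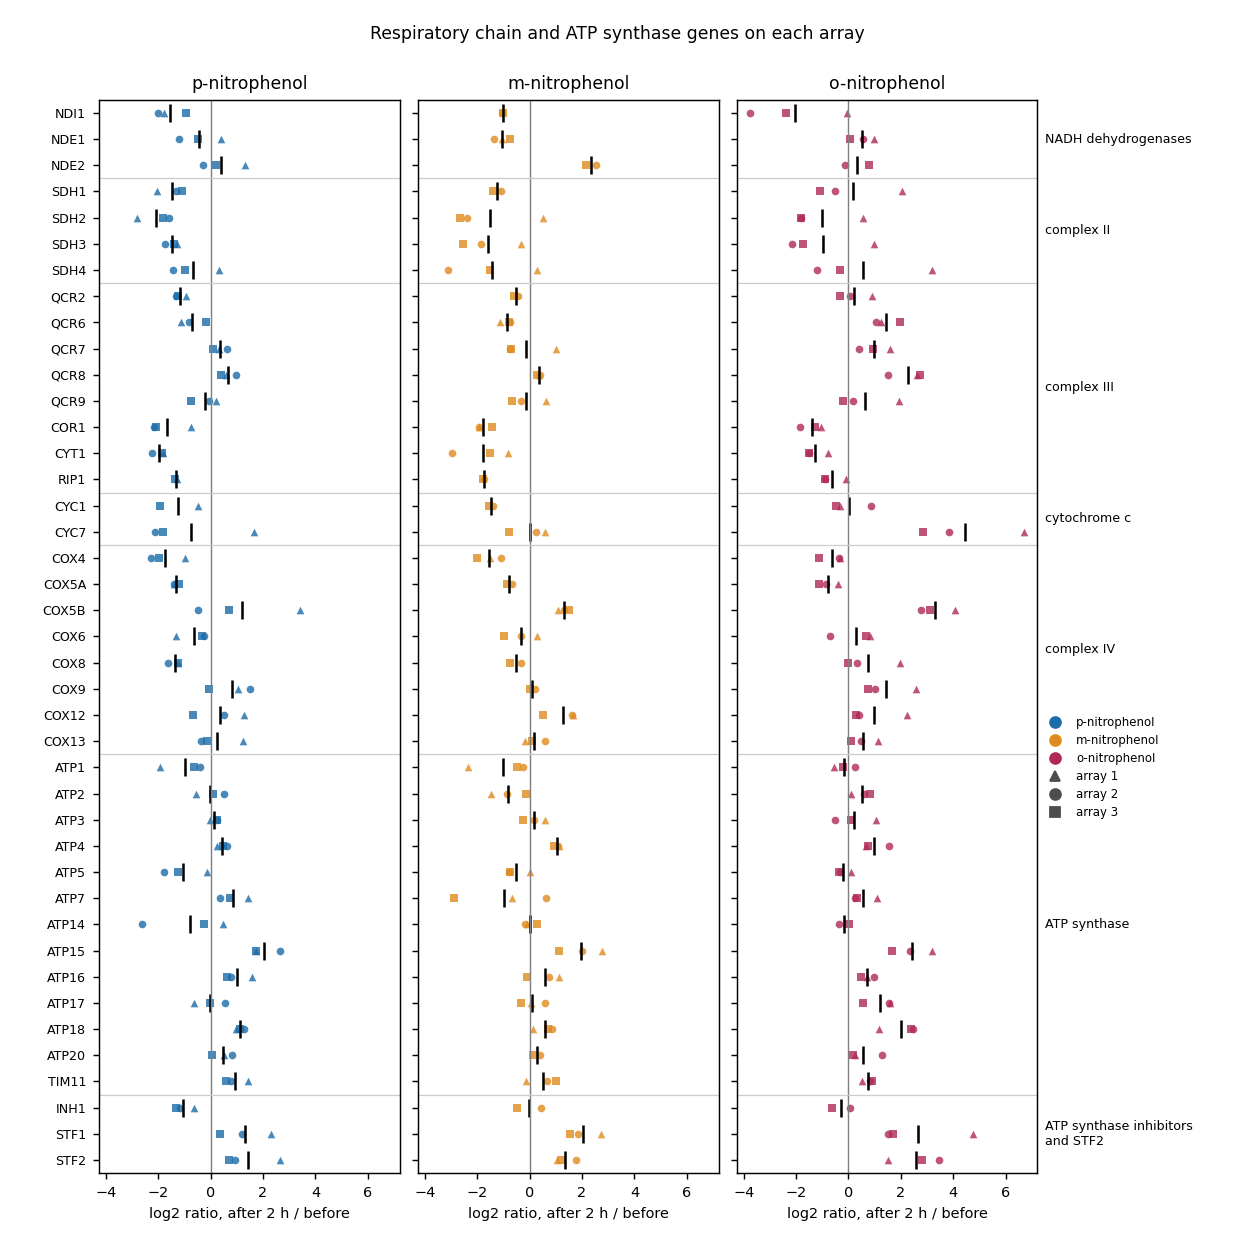
Log2 ratio (after 2 h over before treatment, likely direction) of the 41 measured members on each array, grouped by complex, with 1 panel per isomer; marker shape gives the array number and black bars the group mean. CYC7 in o-nitrophenol reaches 6.69, and the complex II genes on arrays 1 of m- and o-nitrophenol lie to the right of arrays 2 and 3.

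Among the NADH dehydrogenases, each of the 3 genes had its own pattern. NDE2 (YDL085W), an external dehydrogenase facing the intermembrane space, had log2 ratios of 2.52 and 2.15 on m-nitrophenol arrays 2 and 3, of 1.31, -0.31 and 0.22 on the p-nitrophenol arrays, and of -0.15 and 0.80 on o-nitrophenol arrays 2 and 3. Both m-nitrophenol values lay above all others, and NDE2 rose there by 2.34 ± 0.44 (log2, SE, n = 2 arrays; 5.05-fold; adjusted p = 0.00987). That call ended without either m-nitrophenol array, which left 1 array in the group.

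NDI1 (YML120C), the internal dehydrogenase that oxidises matrix NADH, had log2 ratios of -0.07, -3.75 and -2.37 on the o-nitrophenol arrays, -1.79, -2.0 and -0.93 on the p-nitrophenol arrays, and -1.04 and -1.03 on m-nitrophenol arrays 2 and 3. It was below 0 on all 8 arrays that measured it. NDI1 fell in o-nitrophenol by 2.06 on the log2 scale (SE 0.56, 4.17-fold, adjusted p = 0.0218), and its mean was -3.06 without the arrays numbered 1. The call ended without o-nitrophenol array 2, where the mean was -1.22, or array 3 (adjusted p = 0.149 and 0.109). NDE1, the other external enzyme, did not pass and had ratios of 0.40, -1.22 and -0.50, then -1.05, -1.35 and -0.73, then 0.99, 0.56 and 0.04 on the p-, m- and o-nitrophenol arrays. Its mean in m-nitrophenol was -1.04 (adjusted p = 0.0515), and all 3 o-nitrophenol values lay above all 3 m-nitrophenol values. Without the arrays numbered 1 the NDE1 means of -0.86 in p-nitrophenol and -1.04 in m-nitrophenol passed (adjusted p = 0.0386 and 0.0189).

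Complex II, succinate dehydrogenase, had a median over its 4 subunits of -1.48 in p-nitrophenol, -1.49 in m-nitrophenol and -0.41 in o-nitrophenol. SDH2 (YLL041C), the iron-sulfur subunit, had log2 ratios of -2.82, -1.58 and -1.81 on the p-nitrophenol arrays, 0.51, -2.40 and -2.67 on the m-nitrophenol arrays, and 0.57, -1.83 and -1.80 on the o-nitrophenol arrays. Only p-nitrophenol had 1 sign on all 3 arrays, and there SDH2 fell by 2.07 on the log2 scale (SE 0.63, 4.19-fold, adjusted p = 0.0360). The call ended without p-nitrophenol array 1, 2 or 3 (adjusted p = 0.155, 0.0880 and 0.104).

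The other subunits of complex II did not pass in any isomer. SDH3, a membrane anchor, read -1.28, -1.75 and -1.41 in p-nitrophenol, -0.34, -1.84 and -2.54 with m-nitrophenol, and 0.99, -2.15 and -1.75 with o-nitrophenol. SDH4, the other anchor, read 0.33, -1.43 and -0.97, then 0.28, -3.11 and -1.52, then 3.20, -1.19 and -0.31. SDH1, the flavoprotein that binds succinate, read -2.04, -1.31 and -1.10, then -1.11 and -1.40 on m-nitrophenol arrays 2 and 3, then 2.04, -0.50 and -1.07. In m- and o-nitrophenol array 1 was the highest of its group for every subunit it measured: the median of complex II was 0.28 on m-nitrophenol array 1 against -2.12 and -2.03 on arrays 2 and 3, and 1.52 on o-nitrophenol array 1 against -1.51 and -1.41. HAP4, the regulatory subunit of the Hap activator, was likewise at 1.41, 1.36 and 2.03 on the arrays numbered 1 and between -1.82 and -0.51 on the other 6. The part of that array difference in the complex II values was not tested. Without the arrays numbered 1 all 4 subunits fell in p-nitrophenol (-1.20 to -1.69, adjusted p at most 0.0359) and in m-nitrophenol (-1.26 to -2.53, adjusted p at most 0.00425), and SDH1, SDH2 and SDH3 fell in o-nitrophenol (-0.78 to -1.95, adjusted p at most 0.0250).

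Of complex III, the cytochrome bc1 complex, the 4 core and catalytic subunits fell in at least 1 isomer, and 2 of the 4 small subunits rose in o-nitrophenol. The complex's median was -0.94 in p-nitrophenol, -0.69 in m-nitrophenol and 0.42 in o-nitrophenol. COR1 (YBL045C), a core subunit on the matrix side, had log2 ratios of -0.75, -2.17 and -2.07 on the p-nitrophenol arrays, -1.95, -1.95 and -1.43 on the m-nitrophenol arrays, and -1.03, -1.85 and -1.26 on the o-nitrophenol arrays. All 9 values were below 0 and the groups overlapped. COR1 fell in all 3 isomers, by 1.67, 1.78 and 1.38 on the log2 scale (SE 0.32 each; 3.17-, 3.43- and 2.60-fold; adjusted p = 0.00612, 0.00561 and 0.00932). The calls ended without array 2 of the same isomer (adjusted p = 0.0509, 0.0663 and 0.0730).

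CYT1 (YOR065W), cytochrome c1, which hands electrons to cytochrome c, also fell in all 3 isomers. Its log2 ratios were -1.82, -2.23 and -1.86 in p-nitrophenol, -0.84, -2.98 and -1.52 with m-nitrophenol, and -0.78, -1.50 and -1.52 with o-nitrophenol. The p-nitrophenol values all lay below the o-nitrophenol values, and the m-nitrophenol values spanned both. CYT1 fell by 1.97, 1.78 and 1.27 in turn (SE 0.37 each; adjusted p = 0.00555, 0.00987 and 0.0253). The m-nitrophenol call ended without its array 2, where the mean was -1.18, or array 3 (adjusted p = 0.101 and 0.0568), and the o-nitrophenol call without its array 2 or 3 (adjusted p = 0.122 and 0.127).

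RIP1 (YEL024W), the Rieske iron-sulfur protein, read -1.30 and -1.36 on p-nitrophenol arrays 1 and 3, -1.75 and -1.76 on m-nitrophenol arrays 2 and 3, and -0.11, -0.88 and -0.89 on the o-nitrophenol arrays. The groups did not overlap, with m-nitrophenol lowest and o-nitrophenol highest. RIP1 fell in p-nitrophenol by 1.33 (SE 0.33, n = 2, adjusted p = 0.0214) and in m-nitrophenol by 1.75 (SE 0.33, n = 2, adjusted p = 0.00958), and in o-nitrophenol its mean was -0.62 (adjusted p = 0.104). Both calls ended without either array of their isomer, which left 1 array in the group. QCR2 (YPR191W), the other core subunit, read -0.93, -1.31 and -1.24 in p-nitrophenol, -0.43 and -0.58 on m-nitrophenol arrays 2 and 3, and 0.88, 0.07 and -0.34 in o-nitrophenol, again without overlap. It fell in p-nitrophenol by 1.16 (SE 0.28, 2.23-fold, adjusted p = 0.0179), a call that ended without p-nitrophenol array 2 or 3 (adjusted p = 0.0941 and 0.0875).

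QCR6 (YFR033C), the acidic hinge protein next to cytochrome c1, had log2 ratios of 1.26, 1.04 and 1.96 on the o-nitrophenol arrays, -1.15, -0.81 and -0.18 on the p-nitrophenol arrays, and -1.12, -0.74 and -0.78 on the m-nitrophenol arrays. All o-nitrophenol values were above 0 and all others below it. QCR6 rose in o-nitrophenol by 1.42 (SE 0.28, 2.67-fold, adjusted p = 0.00438), and its means of -0.71 and -0.88 in p- and m-nitrophenol did not pass (adjusted p = 0.0848 and 0.0534).

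QCR8 (YJL166W), a subunit that touches cytochrome b, read 2.61, 1.52 and 2.74 in o-nitrophenol, 0.59, 0.97 and 0.38 in p-nitrophenol, and 0.35, 0.40 and 0.29 in m-nitrophenol. All 9 values were above 0 and every o-nitrophenol value exceeded all others. QCR8 rose in o-nitrophenol by 2.29 (SE 0.28, 4.88-fold, adjusted p = 0.000499). QCR7 and QCR9, further small subunits, did not pass: QCR7 read 0.30, 0.63 and 0.09, then 1.02, -0.75 and -0.70, then 1.60, 0.39 and 0.93 in p-, m- and o-nitrophenol. QCR9 read 0.20, -0.06 and -0.75, then 0.62, -0.33 and -0.68, then 1.91, 0.18 and -0.20, with array 1 the highest of each group.

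The cytochromes c, the mobile carriers between complexes III and IV, included the largest member ratio. CYC7 (YEL039C), iso-2-cytochrome c, had log2 ratios of 6.69, 3.82 and 2.85 on the o-nitrophenol arrays, 1.66, -2.13 and -1.81 on the p-nitrophenol arrays, and 0.60, 0.26 and -0.80 on the m-nitrophenol arrays. The o-nitrophenol values lay above all others, and array 1 was the highest of each group. CYC7 rose in o-nitrophenol by 4.45 (SE 0.79, 21.9-fold, adjusted p = 0.00277). It read 3.33 without the arrays numbered 1 (adjusted p = 0.000119), where it also fell in p-nitrophenol by 1.97 (adjusted p = 0.00231). CYC1 (YJR048W), iso-1-cytochrome c, did not pass: it read -0.50 and -1.95 on p-nitrophenol arrays 1 and 3, -1.41 and -1.56 on m-nitrophenol arrays 2 and 3, and -0.33, 0.87 and -0.48 in o-nitrophenol. The o-nitrophenol values of CYC1 lay above all others. Without the arrays numbered 1 the CYC1 mean of -1.48 in m-nitrophenol passed (adjusted p = 0.0105), and p-nitrophenol kept only its array 3.

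**Figure D2:**
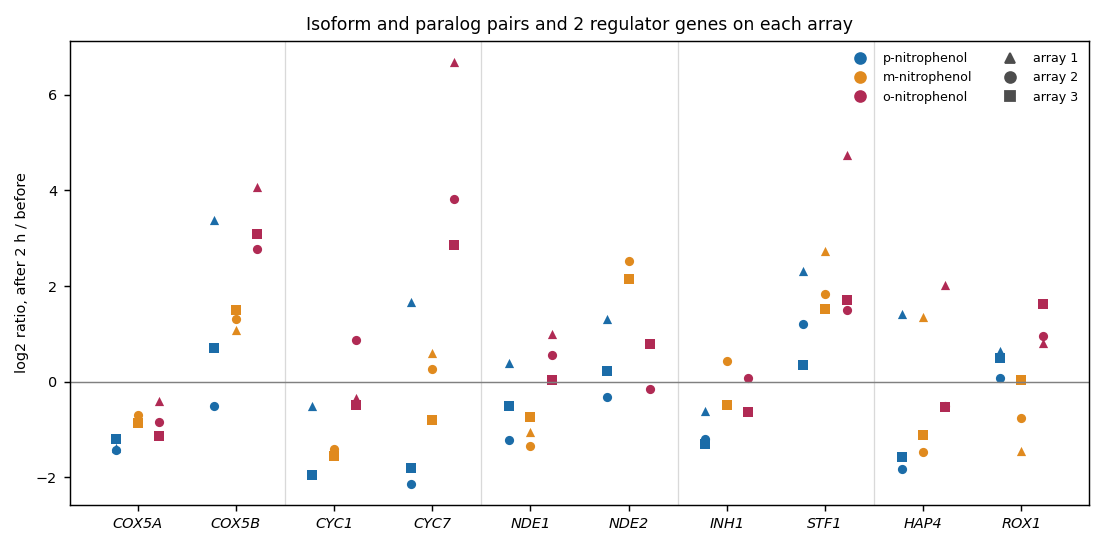
Log2 ratio on each array, by isomer, for isoform and paralog pairs of the members and for the regulator genes HAP4 and ROX1. Marker shape gives the array number. The hypoxic isoform CYC7 lies highest in o-nitrophenol. COX5B does so except that p-nitrophenol array 1 lies among the o-nitrophenol values. HAP4 separates array 1 from arrays 2 and 3 in each group.

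Complex IV, cytochrome c oxidase, had a median of -0.19 in p-nitrophenol, -0.11 in m-nitrophenol and 0.65 in o-nitrophenol over its 8 measured subunits, and COX5B rose in o-nitrophenol. COX5B (YIL111W), the hypoxic isoform, had log2 ratios of 4.08, 2.77 and 3.10 on the o-nitrophenol arrays, 3.39, -0.50 and 0.70 on the p-nitrophenol arrays, and 1.09, 1.32 and 1.50 on the m-nitrophenol arrays. Its o-nitrophenol values lay above all m-nitrophenol values and overlapped with p-nitrophenol through p-nitrophenol array 1. COX5B rose in o-nitrophenol by 3.32 (SE 0.58, 9.96-fold, adjusted p = 0.00261), and its means of 1.20 and 1.30 in p- and m-nitrophenol did not pass (adjusted p = 0.152 and 0.141). Without the arrays numbered 1 it was 2.93 in o-nitrophenol (adjusted p = 0.000139) and also rose in m-nitrophenol, by 1.41 (adjusted p = 0.00676).

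COX5A (YNL052W), the aerobic isoform, read -1.39, -1.42 and -1.20 in p-nitrophenol, -0.69 and -0.86 on m-nitrophenol arrays 2 and 3, and -0.40, -0.84 and -1.14 in o-nitrophenol. All 8 values were below 0, and those of p-nitrophenol lay below the rest. COX5A fell in p-nitrophenol by 1.34 (SE 0.25, 2.53-fold, adjusted p = 0.00631) and in o-nitrophenol by 0.79 (SE 0.25, 1.73-fold, adjusted p = 0.0357). The o-nitrophenol call ended without array 2 or 3 of any isomer (adjusted p = 0.0541 and 0.0593 for p-nitrophenol, 0.0599 and 0.0608 for m-nitrophenol, 0.135 and 0.196 for o-nitrophenol). It also ended with high-power scans alone, where the mean was -0.60 (adjusted p = 0.127), with the random array block, median centring, scale or quantile normalization, and only the groups compared (adjusted p 0.0577 to 0.104).

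COX4 (YGL187C), the zinc-binding subunit, read -0.97, -2.29 and -1.97 in p-nitrophenol, -1.50, -1.11 and -2.01 with m-nitrophenol, and -0.34, -0.37 and -1.14 with o-nitrophenol. All 9 values were below 0, with o-nitrophenol overlapping both other groups through its array 3. COX4 fell by 1.74 in p-nitrophenol and by 1.54 in m-nitrophenol (SE 0.32 each; 3.35- and 2.91-fold; adjusted p = 0.00500 and 0.00987). Its m-nitrophenol call was lost without array 2 or 3 of that isomer (adjusted p = 0.0538 and 0.0998).

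COX8 (YLR395C), a small membrane subunit, read -1.23, -1.62 and -1.26 in p-nitrophenol, -0.31 and -0.73 on m-nitrophenol arrays 2 and 3, and 1.97, 0.32 and -0.02 in o-nitrophenol. The groups did not overlap, from p-nitrophenol lowest to o-nitrophenol highest. COX8 fell in p-nitrophenol by 1.37 (SE 0.37, 2.59-fold, adjusted p = 0.0258), a call that ended without p-nitrophenol array 1, 2 or 3 (adjusted p = 0.0655, 0.124 and 0.0903). COX9 (YDL067C), another small membrane subunit, read 2.58, 1.00 and 0.74 in o-nitrophenol, 1.06, 1.49 and -0.06 in p-nitrophenol, and 0.20 and 0.01 on m-nitrophenol arrays 2 and 3. It rose in o-nitrophenol by 1.44 (SE 0.41, 2.72-fold, adjusted p = 0.0250), which dropped to 0.87 with no call without o-nitrophenol array 1 (adjusted p = 0.107) and ended without array 2 (adjusted p = 0.0582).

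The other 3 subunits of complex IV did not pass. COX12, a peripheral subunit on the intermembrane-space side, read 1.28, 0.52 and -0.69, then 1.66, 1.61 and 0.52, then 2.25, 0.42 and 0.27 in p-, m- and o-nitrophenol. COX6, a peripheral subunit, read -1.32, -0.26 and -0.32, then 0.30, -0.32 and -0.99, then 0.84, -0.70 and 0.67. Both genes overlapped between all groups, and the means of COX13 ranged from 0.17 to 0.55.

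**Figure D3:**
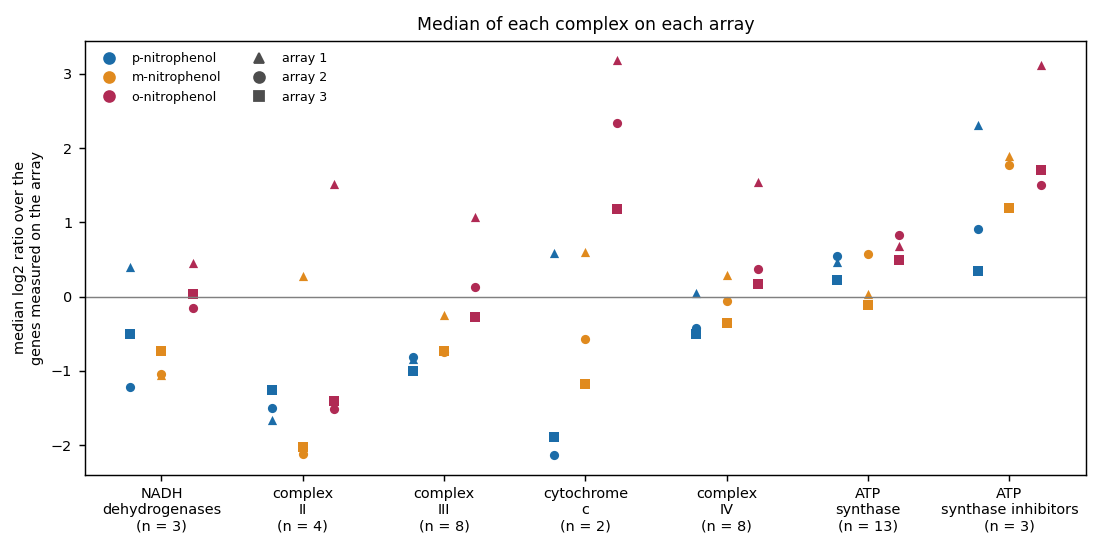
Median log2 ratio of each complex's measured members on each array, by isomer; marker shape gives the array number. Complex II lies above 0 only on array 1 of m- and o-nitrophenol, and ATP synthase and its inhibitors lie mostly above 0.

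The 13 ATP synthase subunits had a median of 0.44 in p-nitrophenol, 0.18 in m-nitrophenol and 0.56 in o-nitrophenol. Of these, 4 rose and 1 fell in p-nitrophenol, 2 rose in m-nitrophenol and 4 rose in o-nitrophenol, where 13.0%, 8.26% and 13.8% of all genes rose. ATP15 (YPL271W), the epsilon subunit of the F1 central stalk, had log2 ratios of 1.72, 2.64 and 1.72 in p-nitrophenol, 2.77, 2.00 and 1.12 with m-nitrophenol, and 3.20, 2.34 and 1.68 with o-nitrophenol. All 9 values exceeded 1 and the groups overlapped. ATP15 rose by 2.03, 1.96 and 2.41 (SE 0.38 each; 4.08-, 3.90- and 5.32-fold; adjusted p = 0.00551, 0.00744 and 0.00167). Without m-nitrophenol array 2 the call there ended (adjusted p = 0.0735).

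ATP18 (YML081C-A), subunit i/j of the membrane part, read 0.96, 1.27 and 1.11 in p-nitrophenol, 0.14, 0.86 and 0.72 with m-nitrophenol, and 1.15, 2.47 and 2.37 with o-nitrophenol. All m-nitrophenol values lay below those of the other groups. ATP18 rose in p-nitrophenol by 1.12 (SE 0.30, adjusted p = 0.0232) and in o-nitrophenol by 2.00 (SE 0.30, 3.99-fold, adjusted p = 0.00132). Leaving out p-nitrophenol array 1, 2 or 3 ended the p-nitrophenol call (adjusted p = 0.0501, 0.115 and 0.0941).

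ATP4 (YPL078C), a peripheral stalk subunit, read 0.25, 0.61 and 0.47 in p-nitrophenol, 1.13, 1.09 and 0.94 with m-nitrophenol, and 0.68, 1.56 and 0.73 with o-nitrophenol. The p-nitrophenol values lay below all others. ATP4 rose in m-nitrophenol by 1.05 and in o-nitrophenol by 0.99 (SE 0.25 each; 2.08- and 1.98-fold; adjusted p = 0.0182 and 0.0143). The m-nitrophenol call ended without its array 1, 2 or 3 (adjusted p = 0.0595, 0.133 and 0.0949), and the o-nitrophenol call without its array 2 (adjusted p = 0.116).

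ATP17 (YDR377W), subunit f of the membrane part, read 1.60, 1.53 and 0.54 in o-nitrophenol, -0.62, 0.55 and -0.04 in p-nitrophenol, and 0.06, 0.57 and -0.34 in m-nitrophenol. It rose in o-nitrophenol by 1.22 (SE 0.32, 2.34-fold, adjusted p = 0.0161), and array 3 overlapped with both other groups. The call ended without o-nitrophenol array 1 or 2 (adjusted p = 0.0594 and 0.0988).

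ATP16 (YDL004W), the delta subunit of the central stalk, and TIM11 (YDR322C-A), subunit e, which joins ATP synthase dimers, rose in p-nitrophenol, and ATP5 (YDR298C), the peripheral stalk's oligomycin-sensitivity subunit, fell there. ATP16 read 1.59, 0.78 and 0.62 on the p-nitrophenol arrays, a mean of 1.00 (SE 0.30, adjusted p = 0.0359). TIM11 read 1.41, 0.78 and 0.59, a mean of 0.93 (SE 0.28, adjusted p = 0.0373). ATP5 read -0.13, -1.77 and -1.26, a mean of -1.05 (SE 0.33, adjusted p = 0.0395). In the other isomers their means were 0.51 to 0.75 for ATP16 and TIM11 and -0.19 to -0.50 for ATP5, with no call. Each of the 3 calls ended without p-nitrophenol array 2 or 3 (adjusted p = 0.0962 and 0.0730 for ATP16, 0.110 and 0.0795 for TIM11, 0.253 and 0.170 for ATP5), those of ATP16 and TIM11 also without array 1 (adjusted p = 0.153 and 0.146). They ended as well without some single arrays of other isomers: m-nitrophenol array 2 or o-nitrophenol array 3 for ATP16 (adjusted p = 0.0563 and 0.0535), and those 2 or o-nitrophenol array 2 for TIM11 (adjusted p = 0.0586, 0.0568 and 0.0520). For ATP5 the call ended without array 2 or 3 of m-nitrophenol (adjusted p = 0.0584 and 0.0596) or of o-nitrophenol (adjusted p = 0.0542 and 0.0594), and its mean without p-nitrophenol array 2 was -0.70. For ATP16 it also ended without the 3 arrays numbered 1 (adjusted p = 0.0691).

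The catalytic F1 subunits and 4 others did not pass in any isomer. ATP1, the alpha subunit, had a mean below 0 in each isomer, with readings of -1.93, -0.42 and -0.62, then -2.34, -0.27 and -0.47, then -0.54, 0.24 and -0.19 in p-, m- and o-nitrophenol. ATP7, subunit d of the peripheral stalk, had the widest spread of these within a group, with 1.44, 0.35 and 0.72, then -0.67, 0.62 and -2.87, then 1.07, 0.25 and 0.33. The group means of ATP2, ATP3, ATP14 and ATP20 lay between -0.83 and 0.56. ATP2, the beta subunit that makes ATP, had means of -0.01, -0.83 and 0.50.

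Of the inhibitors of the F1 ATPase, which stop it from consuming ATP, STF1 rose in m- and o-nitrophenol and INH1 fell in p-nitrophenol. STF1 (YDL130W-A) had log2 ratios of 4.75, 1.50 and 1.70 in o-nitrophenol, 2.74, 1.84 and 1.53 with m-nitrophenol, and 2.31, 1.21 and 0.35 with p-nitrophenol. All 9 values were above 0, the groups overlapped, and array 1 was the highest of each. STF1 rose by 2.65 in o-nitrophenol and by 2.04 in m-nitrophenol (SE 0.59 each; 6.28- and 4.11-fold; adjusted p = 0.00761 and 0.0378). Without o-nitrophenol array 1 the o-nitrophenol mean was 1.60 and the call held. The m-nitrophenol call ended without its array 1, 2 or 3 or without p-nitrophenol array 2 (adjusted p = 0.144, 0.170, 0.122 and 0.0514).

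INH1 (YDL181W), its paralog, read -0.62, -1.19 and -1.31 in p-nitrophenol, 0.43 and -0.48 on m-nitrophenol arrays 2 and 3, and 0.07 and -0.63 on o-nitrophenol arrays 2 and 3. It fell in p-nitrophenol by 1.04 (SE 0.30, 2.06-fold, adjusted p = 0.0384), with p-nitrophenol array 1 overlapping o-nitrophenol array 3. The call ended without array 2 or 3 of p-nitrophenol or m-nitrophenol or without o-nitrophenol array 3 (adjusted p = 0.157, 0.178, 0.0501, 0.0508 and 0.0549).

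STF2 (YGR008C), a factor reported to stabilise the complex of inhibitor and ATP synthase, read 1.50, 3.45 and 2.79 in o-nitrophenol, 2.63, 0.91 and 0.69 in p-nitrophenol, and 1.04, 1.78 and 1.20 in m-nitrophenol. All 9 values were above 0 and the groups overlapped. STF2 rose in o-nitrophenol by 2.58 and in p-nitrophenol by 1.41 (SE 0.44 each; 5.99- and 2.66-fold; adjusted p = 0.00229 and 0.0387), and its mean of 1.34 in m-nitrophenol did not pass (adjusted p = 0.0581). The p-nitrophenol call ended without p-nitrophenol array 1, where the mean was 0.80, or array 2 or 3 (adjusted p = 0.210, 0.0794 and 0.0595), and without m-nitrophenol array 2 or 3 or o-nitrophenol array 3 (adjusted p = 0.0551, 0.0588 and 0.0580).

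The isomers were compared with each other in 3 pairs and by an F test over all 3. Of the 41 members, 0 differed between m- and p-nitrophenol, 1 between o- and p-nitrophenol and 1 between o- and m-nitrophenol, against 0.0196%, 1.18% and 0.726% of all genes (o higher than p for 0.824% and o higher than m for 0.412%). At an unadjusted p under 0.05 the counts were 2, 9 and 11 of 41, against 7.14%, 19.3% and 17.6% of all genes. QCR6 was the member that passed, in both pairs with o-nitrophenol and in the F test (adjusted p = 0.0370), which called 1.06% of all genes. Its difference was 2.13 for o minus p (95% interval 1.26 to 3.01, adjusted p = 0.0318), while o minus m was 2.30 (1.42 to 3.17, adjusted p = 0.0387). The replicate block gave adjusted p = 0.0184 and 0.0151. Both calls ended when array 2 or 3 of any isomer was left out: for o minus p in the order p-, m- and o-nitrophenol the adjusted p was 0.130 and 0.0827, 0.0746 and 0.0744, and 0.0744 and 0.115, and for o minus m it was 0.0696 and 0.0668, 0.186 and 0.143, and 0.100 and 0.149. The calls also ended with each pair of groups fitted alone (adjusted p = 0.108 and 0.0618).

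CYC7 had larger differences but wider intervals. It was 5.21 higher in o- than in p-nitrophenol (log2, 95% interval 2.75 to 7.68, adjusted p = 0.0541) and 4.43 higher than in m-nitrophenol (1.97 to 6.90, adjusted p = 0.0793). With the replicate block the adjusted p was 0.00885 and 0.0180, and without p-nitrophenol array 1 it was 0.0145 and 0.0381. Leaving out any other single array gave no call, with adjusted p 0.0561 to 0.199 for o minus p and 0.0848 to 0.297 for o minus m. Neither difference passed with each pair of groups fitted alone (adjusted p = 0.117 and 0.0852). Without the 3 arrays numbered 1 the differences were 5.30 and 3.60 (adjusted p = 0.000538 and 0.00183). QCR8 differed by 1.64 for o minus p (95% interval 0.76 to 2.52, adjusted p = 0.0753), and its o minus m was 1.94 (1.06 to 2.83, adjusted p = 0.0539). COX8 differed by 2.13 for o minus p (0.96 to 3.30, adjusted p = 0.0813) and COX5B by 2.12 (0.31 to 3.92, adjusted p = 0.195).

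Between m- and p-nitrophenol the members' median difference was 0.03, and the 95% interval of a member's difference had a median half-width of 1.16 log2 units. The largest was NDE2, 1.93 higher in m-nitrophenol (0.62 to 3.23, adjusted p = 0.605), followed by ATP7, 1.81 lower (difference -1.81, interval -3.46 to -0.16, adjusted p = 0.665). Without the arrays numbered 1 the NDE2 difference was 2.38 (adjusted p = 0.0175). NDE2 was the 1 member that passed for m minus p there, where 5.71% of all genes passed. Its o minus m was then -2.01 (adjusted p = 0.0119).

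The members' median difference was 0.76 when p was subtracted from o and 0.71 when m was, where the medians over all genes were -0.20 and -0.13. Without the arrays numbered 1 these member medians were 0.52 and 0.49, and those over all genes -0.19 and -0.14. The difference o minus p was above 0 for 36 of 41 members and for 41.0% of all genes, and o minus m for 34 of 41 and for 44.5%. All 8 subunits of complex III had higher means in o-nitrophenol than in either other isomer, by 0.29 to 2.13 over p-nitrophenol and by 0.40 to 2.30 over m-nitrophenol. All 4 of complex II also had higher means there, but not for both pairs without the arrays numbered 1. Without those arrays o minus p was -0.13 for SDH2 and -0.37 for SDH3, and 0.42 and 0.45 for SDH1 and SDH4. For o minus m the 4 differences stayed above 0, at 0.24 to 1.57. With all arrays, o minus p and o minus m were above 0 for 8 and 6 of the 8 complex IV subunits. They were above 0 for 10 and 11 of the 13 ATP synthase subunits and for both cytochromes c. For the inhibitors with STF2 the counts were 3 and 2 of 3, and for the NADH dehydrogenases 1 and 1 of 3. These comparisons share the o-nitrophenol arrays.

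Arrays of o-nitrophenol lay wholly above those of p-nitrophenol for 11 members and wholly below for 0, against 10.8% and 20.3% of all genes, and above those of m-nitrophenol for 13 and below for 1, against 14.1% and 24.4%. QCR2, QCR6, QCR8, RIP1, COX8, CYC1, CYC7 and SDH1 lay above both, and NDE2 was the 1 member below m-nitrophenol. For m against p, 6 members lay wholly above and 2 wholly below, against 12.1% and 13.2%. Without the arrays numbered 1, 9 members passed for o minus p, all higher, 12 for o minus m (10 higher and 2 lower) and 1 for m minus p, against 21.2%, 20.6% and 5.71% of all genes; QCR6 was among both of the first. With the replicate block 3 members passed in each pair with o-nitrophenol, against 3.71% of all genes over p-nitrophenol and 3.53% over m-nitrophenol.

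Other genes that build or feed the chain were followed as lists of known function. Their counts stand beside all-gene shares of 13.0% higher and 11.9% lower in p-nitrophenol, 8.26% and 9.65% with the m-isomer, and 13.8% and 18.7% with the o-isomer, and no test set a list apart from them. Of 22 assembly factors of complex IV, 6 rose and 0 fell in p-nitrophenol. In m-nitrophenol 5 rose and 0 fell, and with the o-isomer 5 rose and 4 fell. PET191, a twin cysteine motif protein required for complex IV assembly, read 1.75, 1.72 and 1.38, then 1.77 and 1.90 on m-nitrophenol arrays 2 and 3, then 0.86, 1.42 and 1.54. It rose in all 3 isomers, by 1.62, 1.84 and 1.27 (adjusted p = 0.00283, 0.00476 and 0.00519), and the m-nitrophenol call ended without its array 2 or 3 (adjusted p = 0.0758 and 0.0757). COX23, another cysteine-motif protein of the intermembrane space, read 0.29, 0.10 and 0.38 in p-nitrophenol, 1.65 and 1.49 with m-nitrophenol and -1.19 and -1.11 with o-nitrophenol. COX23 rose in m-nitrophenol by 1.57 and fell in o-nitrophenol by 1.15 (adjusted p = 0.00973 and 0.0193), with o minus m at -2.72 (adjusted p = 0.0387). Its treatment calls ended without either measured array of their isomer, which left 1 array in the group, and so did the difference. The difference also ended without p-nitrophenol array 2 or 3 (adjusted p = 0.0696 and 0.0880).

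Assembly factors of the other complexes formed shorter lists. Of 11 for complex III, 0 rose and 1 fell, BCS1, which inserts the Rieske protein, in o-nitrophenol by 1.03 (adjusted p = 0.00933, and 0.0718 without o-nitrophenol array 2 and 0.0649 without array 3). Of 11 for ATP synthase, 1 rose in p-nitrophenol and 1 rose and 4 fell in o-nitrophenol, with FMC1, an F1 assembly factor, rising in both by 1.30 and 1.15 (adjusted p = 0.0212 and 0.0276). The FMC1 calls ended without p-nitrophenol array 1 or 2 (adjusted p = 0.102 and 0.0946), and without o-nitrophenol array 1, 2 or 3 (adjusted p = 0.0540, 0.113 and 0.105). Of 5 for complex II, 2 rose in p-nitrophenol, and 2 rose and 1 fell in m-nitrophenol. SDH7 rose by 1.60 and 2.24 (adjusted p = 0.00949 and 0.00298, the first 0.0565 without p-nitrophenol array 2), while the complex II subunits had medians of -1.48 and -1.49 there.

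Of 10 genes of ubiquinone synthesis, 3 rose in p-nitrophenol, 1 in m-nitrophenol, and 1 rose and 1 fell in o-nitrophenol. Of 8 other electron donors, 2, 3 and 1 rose in p-, m- and o-nitrophenol. Of 5 carriers of ATP, ADP and phosphate, 2 fell in p-nitrophenol, 1 fell in m-nitrophenol, and 1 rose and 2 fell in o-nitrophenol. MIR1, the main phosphate carrier of the inner membrane, fell in all 3 isomers by 2.21, 2.31 and 1.98 (adjusted p = 0.00314, 0.00750 and 0.00334), and the m-nitrophenol call ended without its array 2 or 3 (adjusted p = 0.133 and 0.0660). PIC2, a copper and phosphate carrier, read 4.64, 2.64 and 2.88 on the o-nitrophenol arrays and between -0.21 and 1.88 on the other 6, and rose in o-nitrophenol by 3.39 (SE 0.47, adjusted p = 0.000892). Of 5 further subunits and paralogs, 1 rose in p-nitrophenol, 3 in m-nitrophenol and 1 in o-nitrophenol. ATP19, subunit k of ATP synthase, rose in all 3 by 1.30, 1.44 and 1.51 (adjusted p = 0.0186, 0.0156 and 0.00733). Its calls ended without p-nitrophenol array 1 or 2 (adjusted p = 0.0661 and 0.119), without m-nitrophenol array 1, 2 or 3 (adjusted p = 0.0513, 0.0916 and 0.110), and without o-nitrophenol array 2 (adjusted p = 0.0636).

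Of 11 regulators tested, 1 rose and 1 fell in p-nitrophenol, 1 fell in m-nitrophenol, and 1 rose and 2 fell in o-nitrophenol. HAP4 read 1.41, -1.82 and -1.57 in p-nitrophenol, 1.36, -1.46 and -1.12 with m-nitrophenol, and 2.03, -0.51 and -0.52 with o-nitrophenol. Its array 1 was the highest of each group, and its means of -0.66, -0.41 and 0.33 did not pass (adjusted p = 0.536, 0.739 and 0.748). ROX1, the repressor of hypoxic genes, read 0.81, 0.96 and 1.63 in o-nitrophenol, 0.65, 0.07 and 0.50 in p-nitrophenol, and -1.44, -0.76 and 0.03 in m-nitrophenol. It rose in o-nitrophenol by 1.13 (SE 0.31, adjusted p = 0.0201), where the hypoxic isoforms COX5B and CYC7 rose too, and the call ended without o-nitrophenol array 2 or 3 (adjusted p = 0.0643 and 0.138). TUP1, the corepressor that acts with Rox1, fell in all 3 isomers by 2.18, 2.07 and 1.34 (adjusted p = 0.000806, 0.00248 and 0.00335), and the m-nitrophenol call ended without its array 2 (adjusted p = 0.0519). HAP1 had no probe.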

How the data were processed

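RNA from 9 cultures was measured on 2-colour arrays, each scanned 2 times at different laser power. The authors deposited a log2 ratio per spot and scan, which per the labels was LOWESS-normalised over spots with flag 0. Whether background was subtracted is not stated there. The 2 scans of an array were averaged, and values missing in both scans stayed missing. Of 6912 probes, 5513 had 1 gene symbol and gave 5365 named genes, 5360 of them matched to RefSeq by Entrez ID, and probes of 1 gene were averaged (99 genes, no member). Array intensities were not analysed here, so precision is limited by the number of arrays. Some 13 values lay at the lower limit of the ratio, 0.01.

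limma 3.58.1 in R 4.3.3 (statmod 1.5.0) fitted a mean for each isomer over all 9 arrays, for the 5096 genes with at least 2 arrays in each group (median residual df 5, prior df 4.41). Each mean was tested against 0, the 3 pairs of isomers against each other, and all by a moderated F test, two-sided, with Benjamini-Hochberg adjustment over all genes in each comparison at 0.05 and 95% intervals. An SE is limma's moderated one. The script was tested on simulated data.

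Members and lists were chosen with earlier results of these data known. All 43 members were accounted for, with array values for called members (the 20 lowest p of a comparison), 4 isoform or paralog pairs, and the members with the largest and smallest uncalled mean of each complex. Of other lists, up to 4 genes with the lowest p past the threshold could be named, and HAP4, HAP1 and ROX1 always.

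Alternatives changed the scan, normalization, missing-value filter, probe rule, lower-limit values, array weights, eBayes, samples in the fit and single arrays. The labels call the 3 samples of a group independent. Deviations of same-numbered arrays over 1757 genes correlated at 0.127, 0.255 and 0.117 between p- and m-nitrophenol, 0.366, 0.364 and 0.267 between p- and o-nitrophenol, and 0.104, 0.215 and 0.0608 between m- and o-nitrophenol. Numbers that pair p- with m-nitrophenol and p- with o-nitrophenol would also pair m- with o-nitrophenol, so these correlations do not settle a pairing. The labels do not say whether the before-treatment RNA was shared between isomers. The main fit took the arrays as unpaired, and the replicate block, which pairs all 3 groups by number, was an alternative.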

Additional observations from a re-analysis of the deposited data

Results flagged for a closer look

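The differences between isomers that passed their own test among the members and listed genes were 6. The log2 difference for QCR6 was 2.13 for o minus p, and o minus m was 2.30. For COX23, a complex IV assembly factor, o minus m was -2.72, a call that ended with high-power scans alone and only the groups compared (adjusted p = 0.0593 and 0.0774). Also 3 genes outside the chain differed for o minus p: HEM13, coproporphyrinogen oxidase of haem synthesis, by 3.38, CTA1, peroxisomal catalase, by 2.82, and ADH2, the alcohol dehydrogenase that consumes ethanol, by 2.37 (adjusted p = 0.0251, 0.0474 and 0.0284). The calls of CTA1 and ADH2 ended without array 2 or 3 of any isomer (adjusted p 0.105 to 0.234 for CTA1 and 0.0593 to 0.130 for ADH2). That of CTA1 also ended with high-power scans alone, scale normalization, quantile normalization, robust eBayes and only the groups compared (adjusted p 0.0505 to 0.111), and that of ADH2 with only the groups compared (adjusted p = 0.0754). That of HEM13 ended without p-nitrophenol array 2 or 3 or o-nitrophenol array 3 (adjusted p = 0.127, 0.0763 and 0.0915). Isomer and dose cannot be told apart in these differences.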

How the results depend on the processing

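Counts of members that passed are given in the order p-, m-, o-nitrophenol, m minus p, o minus p, o minus m and the F test, against 15, 8, 15, 0, 1, 1 and 1 with all arrays. High-power scans alone gave 14, 9, 15, 0, 1, 0 and 0, and low-power scans alone 16, 7, 13, 0, 1, 3 and 1. With high-power scans 24.3%, 16.9%, 32.6%, 0.0199%, 0.953% and 0.238% of all genes passed the first 6 comparisons. With low-power scans, where 37 members were tested, the shares were 30.8%, 20%, 30.7%, 0.053%, 2.94% and 3.87%. Both scans kept apart, and the array taken as a random block, gave 19, 13, 14, 0, 4, 4 and 3, arrays centred on their medians 14, 11, 16, 0, 3, 2 and 2, scale normalization 17, 15, 14, 0, 2, 1 and 1, and quantile normalization 18, 15, 14, 0, 2, 1 and 1. The all-gene shares were 28.4%, 21.7%, 35.2%, 0.0392%, 4.89% and 4.43% with the random block. With centred arrays they were 24.3%, 17.5%, 30.9%, 0.0196%, 1.59% and 1.28%. Scale normalization gave shares of 29.7%, 27%, 27.6%, 0.0196%, 1.04% and 1.26%, and quantile normalization 29.6%, 25.8%, 27.7%, 0.0392%, 1.39% and 1.1%. Genes on all 9 arrays gave 10, 6, 12, 0, 2, 1 and 1, and genes with both scans of all 9 arrays, where 14 members are tested, 6, 4, 4, 0, 0, 0 and 0. Of all genes tested there, 29.9%, 21.2%, 33.7%, 0%, 1.31% and 1.42% passed in the first of these. In the second the shares were 37.9%, 24.5%, 32%, 0%, 1.63% and 0.98%. Array weights gave 21, 22, 23, 1, 11, 12 and 14, leaving out the 3 arrays numbered 1 gave 23, 22, 21, 1, 9, 12 and 10, and the replicate block 20, 15, 18, 0, 3, 3 and 2. With array weights 47.8%, 41%, 52.1%, 5.16%, 25.1% and 20.1% of all genes passed the first 6 comparisons. Without the arrays numbered 1 the shares were 42.1%, 40.1%, 51.5%, 5.71%, 21.2% and 20.6%. With the replicate block they were 32%, 24.5%, 40.2%, 0%, 3.71% and 3.53%. With only the groups compared the first 6 counts were 12, 17, 9, 0, 0 and 0, against 19.2%, 24.9%, 20.6%, 0%, 0.432% and 0.255% of all genes. No filter, the probe with most values, lower-limit values left out and robust eBayes left every count as it was, as did, for the F test, each gene's own numbers of arrays, an alternative chosen after seeing the data. Leaving out 1 array at a time gave 5 to 19, 0 to 15, 8 to 17, 0 to 0, 0 to 3, 0 to 3 and 0 to 4. The shares of all genes in p-, m- and o-nitrophenol then ran from 9.79% to 33.4%, 2.88% to 25.1% and 16.5% to 37.8%. For o minus p they ran from 0.118% to 4.14%, and for o minus m from 0.0392% to 5.75%. Of the 15, 8 and 15 calls against 0, 4, 0 and 7 held under every alternative that could test them. A tally over all alternatives followed only the member calls made with all arrays, and CYC7 in o-nitrophenol set against each other isomer. Members outside the tally could newly pass too. Without the arrays numbered 1, for instance, 22 members passed in m-nitrophenol, against 8 with all arrays. In the tally 876 results kept their side of the threshold, 118 missed it, 14, all of CYC7, newly passed, and 0 turned direction. Beside the losses already named, SDH2 missed it in p-nitrophenol with high-power scans, INH1 in p-nitrophenol and COX9 and ATP17 in o-nitrophenol with low-power scans (COX9 at 0.62), TIM11 in p-nitrophenol and ATP4 in m- and o-nitrophenol with the random block, and ATP16 in p-nitrophenol with centred arrays. With only the groups compared, RIP1, ATP5, ATP16, TIM11, INH1 and STF2 missed it in p-nitrophenol and COX9, NDI1, ATP4, ATP17 and STF1 in o-nitrophenol. QCR6 missed the threshold with low-power scans alone for o minus p (adjusted p = 0.0605) and with high-power scans alone for o minus m (adjusted p = 0.0593). The member median in p-nitrophenol was -0.0057 over genes on all 9 arrays and 0.19 over those with both scans. The complex III median in p-nitrophenol was -0.44 in low-power scans, -1.04 with centred arrays, -0.46 over genes on all 9 arrays, 0.34 over the 3 with both scans and -1.05 to -0.87 when 1 array was left out (lowest without p-nitrophenol array 3), and in m-nitrophenol -0.14 over those 3. The complex IV median in p-nitrophenol was 0.25 over genes on all 9 arrays and -0.63 over those with both scans. The cytochrome c median in o-nitrophenol, over 1 gene in each case, was 3.43 in low-power scans and 4.45 over genes on all 9 arrays. The NADH dehydrogenase median was -1.27 in o-nitrophenol in low-power scans and -0.15 to 0.52 when 1 array was left out (without o-nitrophenol array 3 and array 2), and -0.59 in m-nitrophenol with the replicate block. The inhibitor median in o-nitrophenol was 1.68 in low-power scans, 1.60 without the 3 arrays numbered 1, and 1.60 (without o-nitrophenol array 1) to 2.58 when 1 array was left out. Listed genes (125 over all lists, among them the members COX5B and CYC7), counted together by an alternative chosen after seeing the data, numbered 33, 26, 40, 0, 3 and 1 in the first 6 comparisons. They numbered 11, 6, 14, 0, 1 and 0 over genes on all 9 arrays, 1, 0, 0, 0, 0 and 0 over those with both scans, 54, 47, 67, 7, 33 and 28 with array weights, 48, 48, 66, 7, 27 and 29 without the arrays numbered 1, 36, 30, 54, 0, 9 and 7 with the replicate block, and 27, 34, 19, 0, 1 and 0 with only the groups compared. Low-power scans gave 15 in m-nitrophenol and 2 for o minus m, high-power scans 2 and 0 for o minus p and o minus m, the random block 9 and 6, centred arrays 4 and 3, and scale and quantile normalization 2 for o minus m. Robust eBayes gave 2 for o minus p. The shares of all genes given above for the same alternatives stand beside these counts of listed genes too. Leaving out 1 array gave 17 to 34, 2 to 32, 14 to 49, 0 to 0, 0 to 9 and 0 to 6. Fewer genes or arrays enter some alternatives by construction, and other causes were not tested. The promoter motif search was not run, since no promoter sequences were used here. With 3 arrays a group, in places 2, a missed threshold does not show that a gene kept its level, and ratios give no level.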

Other observations

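Genes of haem synthesis, which supplies the cofactor of complexes III and IV and of cytochrome c, had medians of -1.05, -0.85 and -0.28 in p-, m- and o-nitrophenol. Of 8 tested, 4 fell and 0 rose in p-nitrophenol, 3 fell and 1 rose in m-nitrophenol, and 1 fell and 0 rose in o-nitrophenol, where 11.9%, 9.65% and 18.7% of all genes fell. HEM14, protoporphyrinogen oxidase, was the gene that rose, by 1.20 (adjusted p = 0.0423). It was singled out after its values were seen. HEM13 had log2 ratios of -3.79, -3.76 and -2.92 in p-nitrophenol, -1.01 and -2.27 on m-nitrophenol arrays 2 and 3, and 0.86, -0.79 and -0.39 in o-nitrophenol, and the groups did not overlap. It fell by 3.49 in p-nitrophenol and by 1.64 in m-nitrophenol (adjusted p = 0.000864 and 0.0410). The m-nitrophenol call ended without its array 2 or 3, with means of -2.27 and -1.01 (adjusted p = 0.103 and 0.402), and without p-nitrophenol array 2 or 3 or o-nitrophenol array 3 (adjusted p = 0.0564, 0.0543 and 0.0636). It also ended with the replicate block, where the mean was -1.47 (adjusted p = 0.0820), with high-power scans alone and with the random array block (adjusted p = 0.0765 and 0.0565). HEM15, ferrochelatase, fell by 2.96 and 2.05 in the same isomers (adjusted p = 0.00141 and 0.0152). The m-nitrophenol call of HEM15 ended without its array 2 or 3 (adjusted p = 0.154 and 0.136).

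Of 13 hypoxic genes tested, a list that holds the members COX5B and CYC7, 7 fell and 0 rose in p-nitrophenol, 3 fell and 0 rose in m-nitrophenol, and 4 rose and 5 fell in o-nitrophenol, beside the same shares of all genes falling and 13.8% rising in o-nitrophenol. TIR1, a cell wall mannoprotein, read -2.29, -4.79 and -5.0 in p-nitrophenol, -3.40 and -4.43 on m-nitrophenol arrays 2 and 3, and -1.63, -2.26 and -1.83 in o-nitrophenol, below 0 on every array that measured it. It fell by 4.03, 3.91 and 1.90 in turn (adjusted p = 0.00135, 0.00345 and 0.0167). The m-nitrophenol call ended without its array 3 (adjusted p = 0.0672) and the o-nitrophenol call without its array 2 or 3 (adjusted p = 0.0919 and 0.0733). So in o-nitrophenol TIR1 fell where COX5B and CYC7 rose.

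Of 19 glucose-repressed genes tested, 3 rose and 1 fell in p-nitrophenol, 3 rose in m-nitrophenol and 6 rose in o-nitrophenol, where 13.0%, 8.26% and 13.8% of all genes rose. CTA1 read 1.86, 2.52 and 3.38 in o-nitrophenol and between -0.44 and 0.19 on the 4 other arrays that measured it, and rose by 2.59 (adjusted p = 0.00119). PCK1, the gluconeogenic PEP carboxykinase, read 1.99, 1.09 and 1.08 in p-nitrophenol, 2.70 and 2.45 on m-nitrophenol arrays 2 and 3, and 0.71 and 0.40 on o-nitrophenol arrays 2 and 3. It rose by 1.39 in p-nitrophenol and by 2.57 in m-nitrophenol (adjusted p = 0.0108 and 0.00291), the latter with adjusted p = 0.0611 without m-nitrophenol array 2.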
